A study of Mus musculus with 6 samples.

Results

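The RNA of 9 amino acid transporter genes was followed in mouse pancreatic islets. They are Slc3a2, Slc7a5 and Slc7a11, which form heteromeric exchangers, Slc1a4, Slc1a5 and Slc38a2, which carry small neutral amino acids, and Slc7a1, Slc7a2 and Slc7a3, which carry cationic ones. They were chosen by symbol from a table of 34245 genes, and all 9 were found once each. Poly(A) RNA of whole islets had been sequenced in 6 libraries, 1 per animal code, from C57BL/6J mice aged 5 weeks. In the mice of 3 libraries the floxed Abca12 allele (tm1d after deletion) had been deleted by Rip1-Cre (KO). The mice of the other 3 libraries were controls that also carried Rip1-Cre and were heterozygous for the floxed allele (HET). Cre was thus present in the mice of all 6 libraries and no Cre-free group was compared. Rip1-Cre is driven by the rat insulin promoter and acts in beta cells, while the libraries hold the RNA of every cell type of the islet. In such bulk RNA, fewer cells of a type and less RNA per cell cannot be told apart.

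Amino acids enter islet cells through transporters that differ in their substrates and in what drives them. Exchangers such as LAT1 (Slc7a5) and xCT (Slc7a11) need the chaperone subunit 4F2hc (Slc3a2) to reach the plasma membrane, and they trade an internal amino acid for an external one. Sodium-coupled carriers such as SNAT2 (Slc38a2) accumulate the small neutral amino acids that exchangers then use, and the cationic transporters supply arginine, a secretagogue of insulin and glucagon. Most of these genes are known targets of ATF4, the transcription factor of the integrated stress response, which binds C/EBP-ATF response elements. Slc7a11 is also a target of the antioxidant factor NRF2.

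The deposited values are log2 RPM, reads scaled to a common library total, and libraries had 27447026 to 35511008 reads. Abca12 itself held 2 reads in KO 1 and 0 in the other 5 libraries, so the labels could not be checked from it. The islet hormone genes Ins2 and Gcg averaged 72730 and 17195 RPM over the 6 libraries, so defining markers of the labelled tissue were present. The main division among the libraries followed the animal codes and held both genotypes on each side. KO 1, HET 1 and KO 2 carry codes B114, B123 and B125 (the lower codes), and HET 2, HET 3 and KO 3 carry codes B126, B127 and B130 (the higher codes). The labels do not call this a batch. Transcripts of acinar cells, the digestive enzyme cells around islets, took 0.606%, 5.49% and 2.31% of listed reads in the lower codes and 0.135%, 0.0807% and 0.148% in the higher codes, in the order just given. KO 2 held both Xist (459.3 RPM) and the Y-linked Ddx3y (49.8 RPM), so whether 1 mouse gave that library is not known. KO 1 and HET 2 held Xist (329.3 and 295.5 RPM) and no Ddx3y. KO 3, HET 1 and HET 3 held Ddx3y (53.56, 102 and 49.67 RPM) and almost no Xist (0.03643, 0.1616 and 0.03016 RPM). By these genes the sexes were mixed within both groups, and sex was not a term in any fit.

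None of the 9 transporters differed between KO and HET past the threshold, and no other gene did. Of 14238 genes averaging 1 RPM or more, limma called 0 (0.0%) at a Benjamini-Hochberg adjusted p under 0.05, and limma-voom also called 0. An unadjusted limma p under 0.05 was found for 250 genes (1.76%), none of them among the 9. All 9 transporters passed the filter on low values and had an adjusted p of 0.9998. Of the 9, 6 had lower and 3 higher means in KO, and their median log2 difference was -0.21. Over all genes tested the median was 0.01, and 48.6% were lower. The groups did not overlap for 1 transporter, Slc7a3, against 5.74% of all genes and 1.54% with KO as the lower group. Values are given by the roles of the proteins. All differences are KO minus HET in log2(RPM + 1), a scale that shrinks the differences of genes with few reads, and brackets give 95% intervals.

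**Figure D1:**
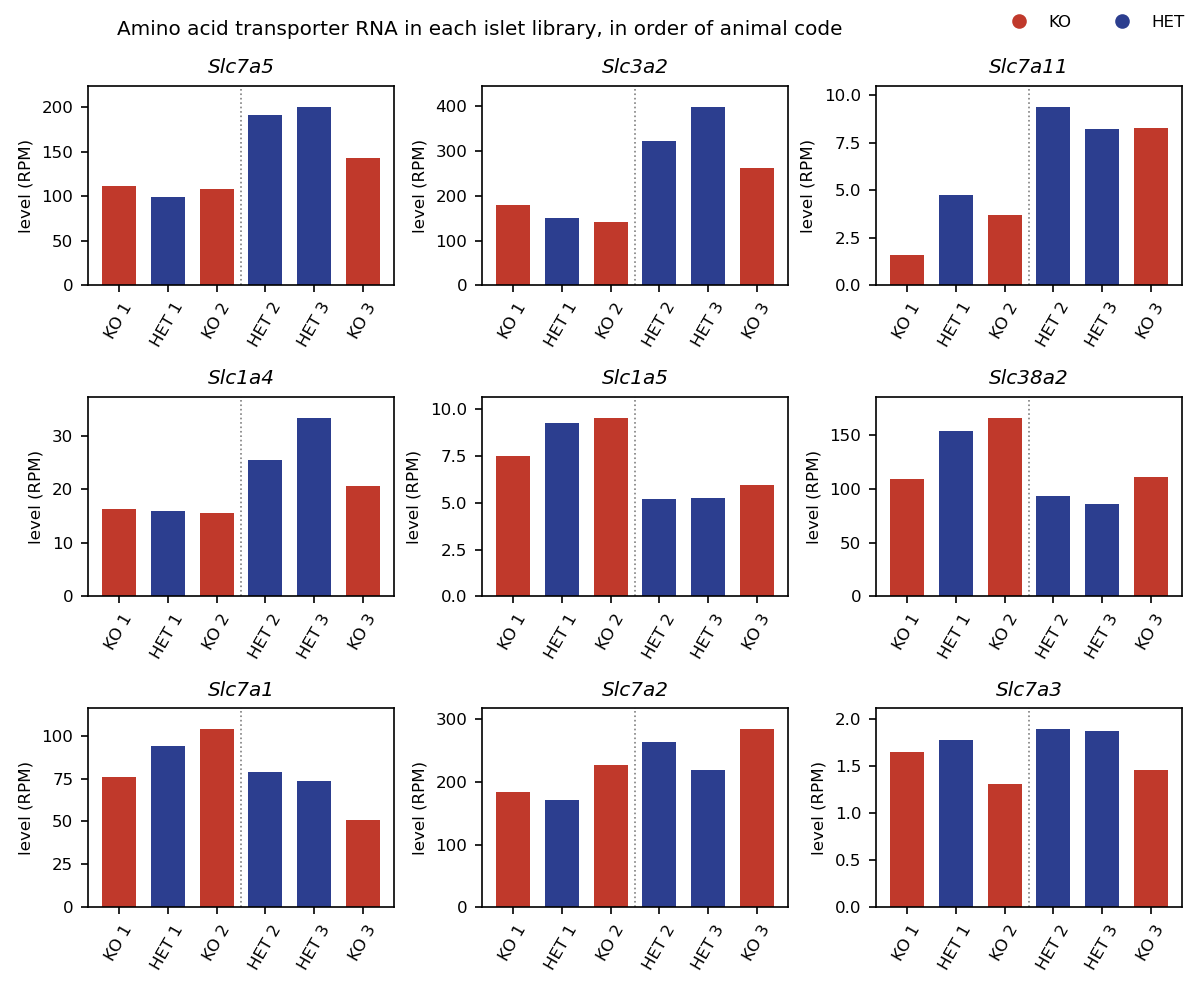
RNA level (RPM, vertical axis from 0) of each of the 9 transporter genes in each library, 1 bar per library, ordered by animal code from left (B114) to right (B130), with KO in red and HET in blue. The dotted line divides codes B114 to B125 from codes B126 to B130: Slc7a5, Slc3a2, Slc7a11 and Slc1a4 are higher to its right, Slc1a5 is lower there, and the other 4 genes overlap across it.

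Slc3a2 encodes 4F2hc, the heavy chain that carries several SLC7 light chains to the cell surface (ENSMUSG00000010095.13, GRCm38 chromosome 19, 8706882 to 8723369). Its level was 179, 142 and 262 RPM in KO 1 to 3 and 151, 322 and 397 RPM in HET 1 to 3. HET 2 and HET 3 were the highest libraries, but HET 1 lay within the KO range, so the groups overlapped. KO averaged 194 ± 61.6 RPM and HET 290.1 ± 125.9 RPM (SD, n = 3 per group), and the difference was -0.51 (-1.42 to 0.39). Across the animal codes there was no overlap, with 142 to 179 RPM in the lower and 262 to 397 RPM in the higher codes. The higher codes stood above the lower ones by 0.72 (log2) within KO and by 1.24 within HET.

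Slc7a5 encodes LAT1, the light chain that imports leucine and other large neutral amino acids (ENSMUSG00000040010.10, chromosome 8, 121881150 to 121907694). It had 111, 109 and 143 RPM in KO 1 to 3 and 99.5, 191 and 199.8 RPM in HET 1 to 3. As for its partner, HET 1 was low and HET 2 and HET 3 were high. The KO minus HET difference was -0.38 (-1.05 to 0.30), from means of 121 ± 19.5 and 163 ± 55.5 RPM (SD, n = 3 each). The lower codes ranged from 99.5 to 111 RPM and the higher codes from 143 to 199.8 RPM. Per length of exon, Slc3a2 exceeded Slc7a5 by 1.37 to 2.09 times in the 6 libraries.

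Slc7a11 encodes xCT, the light chain that imports cystine in exchange for glutamate and so feeds glutathione synthesis (ENSMUSG00000027737.10, chromosome 3, 49892526 to 50443614). It had the widest span of the 9 genes, 5.81 times from the lowest to the highest library. KO 1 to 3 held 1.61, 3.70 and 8.27 RPM, and HET 1 to 3 held 4.75, 9.35 and 8.20 RPM. KO 1 was far below the rest, with 47 reads (1.61 RPM, exact Poisson 95% interval 1.18 to 2.14, counting error only). KO 3 lay inside the range of HET 2 and HET 3. KO averaged 4.53 ± 3.41 RPM and HET 7.43 ± 2.39 RPM (SD, n = 3 per group), and the difference was -0.76 (-1.83 to 0.32). Without KO 1 the difference was -0.31, and without KO 3 it was -1.22, with an adjusted limma p of 0.705. In the fit without KO 3 every remaining KO library has a lower code. The codes again separated the libraries, at 1.61 to 4.75 RPM against 8.20 to 9.35 RPM.

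The promoter of Slc7a11 is shown because ATF4-responsive transport genes are known for the response element it holds. The sequences are RefSeq's on GRCm38.p6, 5′ to 3′ on the minus strand, which is the strand of both genes, and capitals mark matches to the core TGATGCAA on either strand (TTGCATCA when read on the other strand). The first is the last 100 bases before the transcription start (chr3:50443614-50443713), with matches at bases -66 to -59 and -47 to -40. The second is a stretch of 30 bases around the start of Slc1a4 (chr11:20332699-20332728), with a match that spans the start itself.
Slc7a11: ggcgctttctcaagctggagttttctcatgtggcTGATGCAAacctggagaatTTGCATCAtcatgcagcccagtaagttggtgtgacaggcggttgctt
Slc1a4: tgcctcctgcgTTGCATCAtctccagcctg
Of 32851 promoter windows of 300 bases (250 before and 50 after the start), 294 (0.895%) held the core and 2 held it 2 or more times, the Slc7a11 window among them. Windows were found for 5 of the 9 transporters (Slc7a11, Slc7a1, Slc1a4, Slc38a2 and Slc3a2), 6 windows in all, since Slc7a1 has 2. The core was in 2 of the 6. The antioxidant response element core TGACNNNGC, searched on both strands, was in 2 others, of Slc7a1 and Slc38a2, against 12.4% of all windows. A match is a run of letters, not a measured binding site.

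Slc1a4 encodes ASCT1, an exchanger of serine, alanine and other small neutral amino acids (ENSMUSG00000020142.12, chromosome 11, 20302180 to 20332713). It had 16.4, 15.5 and 20.7 RPM in KO 1 to 3 and 16.0, 25.5 and 33.3 RPM in HET 1 to 3. The 3 lower codes lay within 15.5 to 16.4 RPM whatever their genotype, and the higher codes ran from 20.7 to 33.3 RPM. The KO minus HET difference was -0.43 (-1.06 to 0.19). Among the 3 lower codes the difference was -0.00, and among the higher codes KO 3 stood 0.47 (log2) under the mean of HET 2 and HET 3.

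Slc1a5 encodes ASCT2, the related exchanger best known for glutamine (ENSMUSG00000001918.17, chromosome 7, 16781340 to 16798274). Its RNA was higher in the lower codes, unlike that of Slc1a4. KO 1 to 3 had 7.50, 9.52 and 5.94 RPM, and HET 1 to 3 had 9.28, 5.21 and 5.25 RPM. The lower codes ranged from 7.50 to 9.52 RPM and the higher codes from 5.21 to 5.94 RPM. The KO minus HET difference was 0.21 (-0.41 to 0.84). Per length, Slc1a4 exceeded Slc1a5 by 1.73 to 6.74 times, with the 3 highest ratios in the 3 higher codes.

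Slc38a2 encodes SNAT2, the sodium-coupled carrier of alanine, glutamine and other small neutral amino acids (ENSMUSG00000022462.7, chromosome 15, 96687394 to 96699698). It had 109, 166 and 112 RPM in KO 1 to 3 and 154, 93.7 and 86.0 RPM in HET 1 to 3. KO 2 and HET 1, the libraries with the most acinar RNA, were highest, and KO 1 fell just under KO 3, so the codes overlapped. The part of acinar RNA in this order was not tested. The KO minus HET difference was 0.23 (-0.41 to 0.88).

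Among the cationic transporters, Slc7a2 was the most abundant (CAT2, ENSMUSG00000031596.15, chromosome 8, 40862396 to 40922308). It had 183, 227 and 283 RPM in KO 1 to 3 and 171, 263 and 218 RPM in HET 1 to 3, and the groups overlapped. The KO minus HET difference was 0.09 (-0.48 to 0.65). Slc7a2 is also a marker of alpha cells, the glucagon cells. The summed level of the other 8 alpha cell markers was 16299, 13467 and 30649 RPM in KO 1 to 3 and 10829, 19687 and 16902 RPM in HET 1 to 3. KO 3 was highest and HET 1 lowest for both that sum and Slc7a2, and the part of alpha cell RNA in the level of Slc7a2 was not tested. None of the 8 markers was at 0 in all libraries, and Gcg led the sum. An opposite-strand transcript, Gm26584 (2.36 RPM), overlaps 6.95% of the exon bases of Slc7a2.

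Slc7a1 encodes CAT1, the widely expressed arginine and lysine transporter (ENSMUSG00000041313.14, chromosome 5, 148327410 to 148399904). It had 75.8, 103.6 and 51.0 RPM in KO 1 to 3 and 93.8, 78.6 and 73.3 RPM in HET 1 to 3. KO 2 was the highest and KO 3 the lowest of all 6, so the spread within KO exceeded the difference between groups, which was -0.14 (-0.76 to 0.48). Without KO 3 the difference turned to 0.12.

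Slc7a3 encodes CAT3, known mainly from neurons (ENSMUSG00000031297.14, chromosome X, 101079210 to 101086020). Its RNA was low, at 39 to 48 reads per KO library and 55 to 67 per HET library. Levels were 1.64, 1.31 and 1.46 RPM in KO and 1.78, 1.89 and 1.87 RPM in HET. Every KO library was under every HET library, yet the counting intervals of KO 1 (1.21 to 2.18 RPM) and HET 1 (1.34 to 2.31 RPM) overlapped. The difference was -0.21 (-0.62 to 0.21) and its unadjusted limma p was 0.286.

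**Figure D2:**
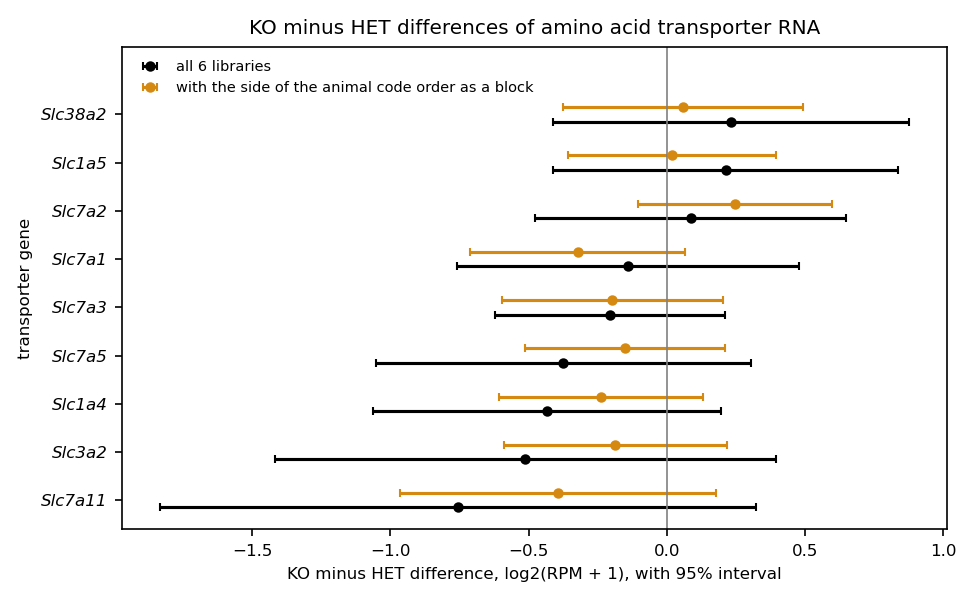
KO minus HET difference of each of the 9 transporter genes (horizontal axis, log2(RPM + 1); points are estimates and bars 95% intervals from limma) in all 6 libraries (black) and with the side of the animal code order as a block (orange). All 18 intervals include 0, and the largest difference without the block, that of Slc7a11 at -0.76, is -0.39 with it.

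With the side of the animal codes as a block, the 5 transporters with differing code ranges came closer to 0. Slc3a2 was at -0.19, Slc7a5 at -0.15, Slc7a11 at -0.39, Slc1a4 at -0.24 and Slc1a5 at 0.02. Slc7a1 moved away from 0, to -0.32 (-0.71 to 0.07), and Slc7a2 to 0.25 (-0.10 to 0.60). The lowest adjusted limma p of the 9 in this fit was 0.947. Leaving out HET 1, the control with the lower code, moved differences the other way. Slc3a2 was then at -0.92, Slc7a5 at -0.70 and Slc1a4 at -0.71, with unadjusted limma p of 0.0112, 0.00644 and 0.00905 and adjusted p of 0.396, 0.395 and 0.395. In that fit every remaining HET library has a higher code, and 1702 of 14238 genes had an unadjusted limma p under 0.05. Of those, 1023 were lower in KO, against 67 of 250 in the main fit.

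Within each genotype, the higher codes differed from the lower ones in the same direction for 8 of the 9 transporters, against 74.3% of all genes. Slc7a3 was the exception. Ranges of the 2 code sides did not overlap for 5 transporters, against 48.1% of all genes. Slc7a5, Slc3a2, Slc7a11 and Slc1a4 were the 4 higher in the higher codes (31.3% of all genes), and Slc1a5 was the 1 higher in the lower codes (16.8% of all genes). The summed level of 18 acinar markers was 3992 to 36120 RPM in the lower and 534 to 1019.9 RPM in the higher codes. None of the 18 was at 0 throughout, and the part of acinar RNA in these orders was not tested.

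**Figure D3:**
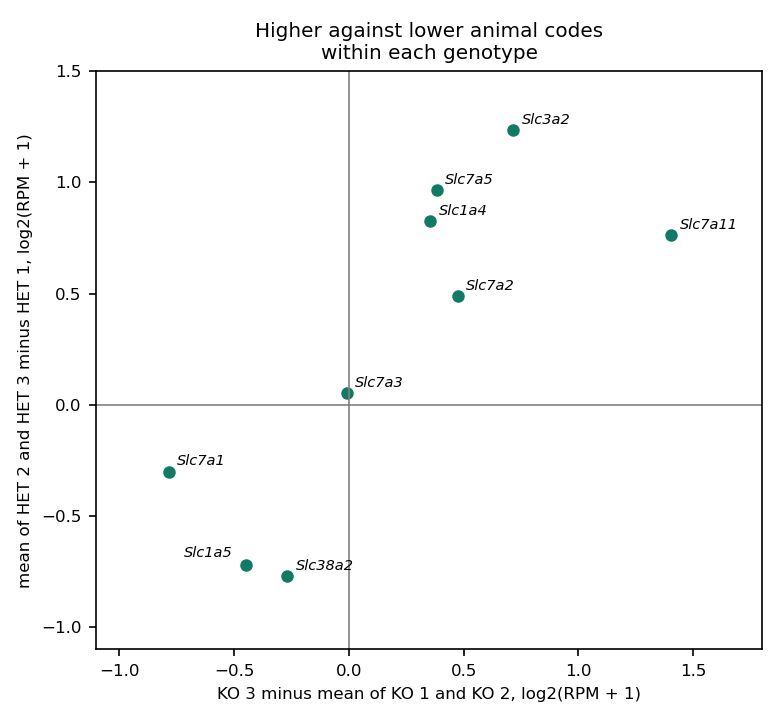
Difference between higher and lower animal codes within KO (horizontal axis: KO 3 minus the mean of KO 1 and KO 2) and within HET (vertical axis: mean of HET 2 and HET 3 minus HET 1), log2(RPM + 1), 1 point per transporter gene. Slc3a2, Slc7a11, Slc7a5, Slc1a4 and Slc7a2 lie at the upper right, Slc1a5, Slc38a2 and Slc7a1 at the lower left, and each axis rests on a lone library at one end.

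Per length, the order of levels was led by the 4F2hc and LAT1 pair. Mean levels were 68.6 RPM per kb of exon for Slc3a2, 38.4 for Slc7a5, 24.6 for Slc7a2, 13.6 for Slc38a2, 6.88 for Slc7a1, 5.41 for Slc1a4 and 1.71 for Slc1a5. Slc7a3 and Slc7a11 were lowest, at 0.438 and 0.430. The ranges over the 6 libraries overlapped between neighbours for Slc3a2 and Slc7a5, Slc7a5 and Slc7a2, and Slc7a2 and Slc38a2, but each library kept that order. Slc7a1 exceeded Slc1a4 in 4 of 6 libraries and Slc7a3 exceeded Slc7a11 in 3 of 6, so neither pair differed beyond its spread. Lengths are unions of all annotated exons. With the longest coding transcript instead, the means of Slc7a11 (0.648) and Slc7a3 (0.603) changed places and the other means kept their order. Slc7a2 (28.4) and Slc38a2 (25.8) then lay close to each other. The orders within libraries given above hold for the exon unions alone.

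The 9 genes are not the whole of amino acid transport in islets. Of 40 other transporter genes listed for the plasma membrane, 23 passed the filter, 11 with higher and 12 with lower means in KO. Slc7a14 and Slc36a1 were counted both here and in the list of lysosomal and vesicular carriers. Slc38a4, a SNAT2 relative, had a mean of 39.7 RPM per kb, close to that of Slc7a5. Slc7a8, encoding the second system L light chain LAT2, had 31.9 RPM per kb, and Slc7a14 had 25.5. Slc6a6, the taurine carrier, had 22.3 and Slc16a10, the carrier of aromatic amino acids, 18.1 RPM per kb. The KO minus HET differences of Slc38a4 and Slc7a8 were -0.08 (-0.51 to 0.35) and 0.03 (-0.43 to 0.49). No other transporter passed the adjusted threshold. The lowest unadjusted p was that of Slc6a9, the glycine transporter GlyT1, which had 6.89, 7.03 and 10.9 RPM in KO 1 to 3 and 13.3, 12.6 and 19.8 RPM in HET 1 to 3. Every KO library lay under every HET library, as for 1.54% of all genes, and the difference was -0.81 (-1.39 to -0.23). Slc6a9 was the 1 gene of the 23 with an unadjusted limma p under 0.05, against 1.76% of all genes. Its unadjusted limma p was 0.0124 and its adjusted p 0.9998. Ccdc24 (10.2 RPM) overlaps 27.8% of the exon bases of Slc6a9 on the other strand, so their reads cannot be told apart without strand information. Slc38a3, encoding SNAT3, was lowest in HET 3 (0.302 RPM) and highest in HET 1 (7.47 RPM), the libraries with the least and the most acinar RNA, and the part of that RNA was not tested.

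**Figure D4:**
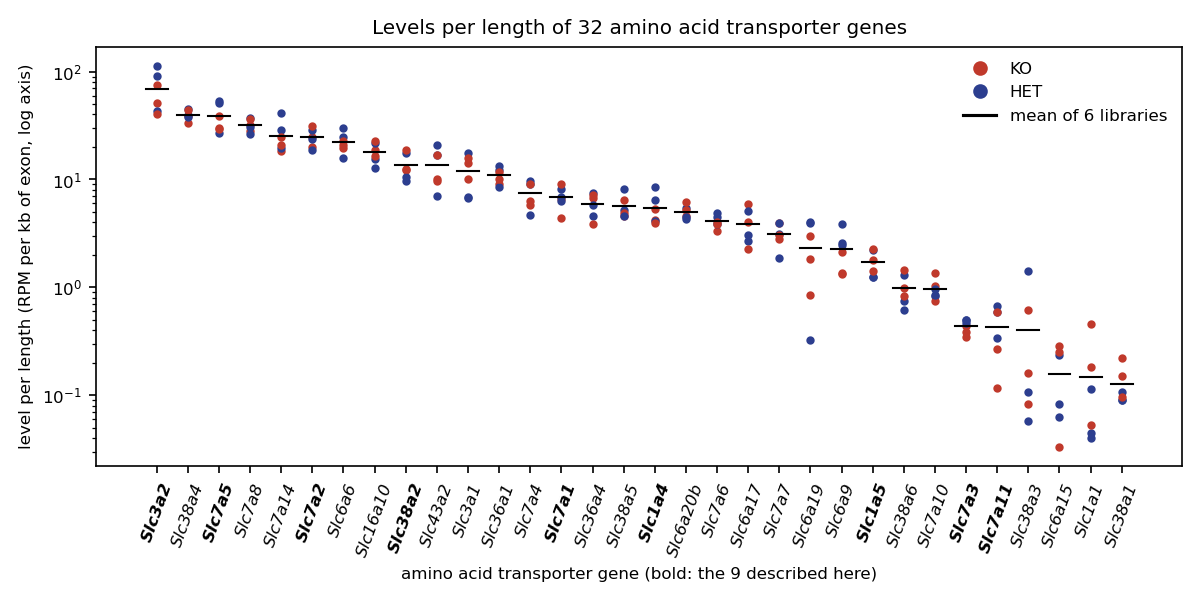
Level per length (RPM per kb of exon, log axis) of the 9 transporter genes (bold) and 23 others that passed the filter, ordered by their mean, with 1 point per library (KO red, HET blue) and a bar at the mean of 6 libraries. Slc3a2 leads at 68.6, and Slc7a3 and Slc7a11 lie near 0.43, with the points of KO and HET mixed for most genes.

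The genes of the ATF4 pathway were set beside the transporters, from a list written with earlier results of these data known. Of 33 genes, 31 were tested, 25 with lower and 6 with higher means in KO, against 48.6% lower over all genes. Their median difference was -0.34. None of the 31 passed the adjusted threshold. For 12 of them every higher code lay above every lower code, against 31.3% of all genes. For 7 every higher code lay below every lower code, against 16.8% of all genes. An unadjusted limma p under 0.05 toward lower RNA was found for 5 of the 31, against 0.471% of all genes, and toward higher RNA for 0, against 1.29%. These shares rest on 67 lower and 183 higher genes, and with median-of-ratios scaling the split of all genes was 134 lower and 132 higher. The list was counted under the deposited scaling alone and without the animal codes as a block. Those 5 were Nupr1, Phgdh, Cebpb, Gpt2 and Aldh1l2. Nupr1, Phgdh and Cebpb were already known to be lower in these KO libraries when the list was written, so their count is not independent evidence. Tmem189 overlaps 20.7% of the exon bases of Cebpb on the other strand. Gpt2, a mitochondrial alanine aminotransferase, had 9.59, 13.01 and 11.7 RPM in KO 1 to 3 and 12.9, 22.0 and 28.3 RPM in HET 1 to 3 (difference -0.77, -1.43 to -0.11). Aldh1l2, a mitochondrial folate enzyme, had 50.2, 50.7 and 60.1 RPM in KO 1 to 3 and 64.0, 95.5 and 89.6 RPM in HET 1 to 3. The groups did not overlap, as for 1.54% of all genes with KO lower, and the difference was -0.60 (-1.07 to -0.14). D10Wsu102e (36.1 RPM) overlaps 14.1% of the exon bases of Aldh1l2 on the other strand. Atf4 RNA itself overlapped between groups, KO spanning 289.8 to 325.8 RPM and HET 283 to 387 RPM, with a difference of -0.20 (-0.66 to 0.27). Asns, asparagine synthetase, differed by -0.44 (-1.03 to 0.15). It had 85.9 to 120 RPM in the lower and 149.9 to 174 RPM in the higher codes. Of 30 list genes with a promoter window, 6 held the TGATGCAA core shown above for Slc7a11. Of all windows, counted by window and not by gene, 0.895% held it. Nupr1 was the only one of these 6 among the 5 genes with an unadjusted limma p under 0.05.

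**Figure D5:**
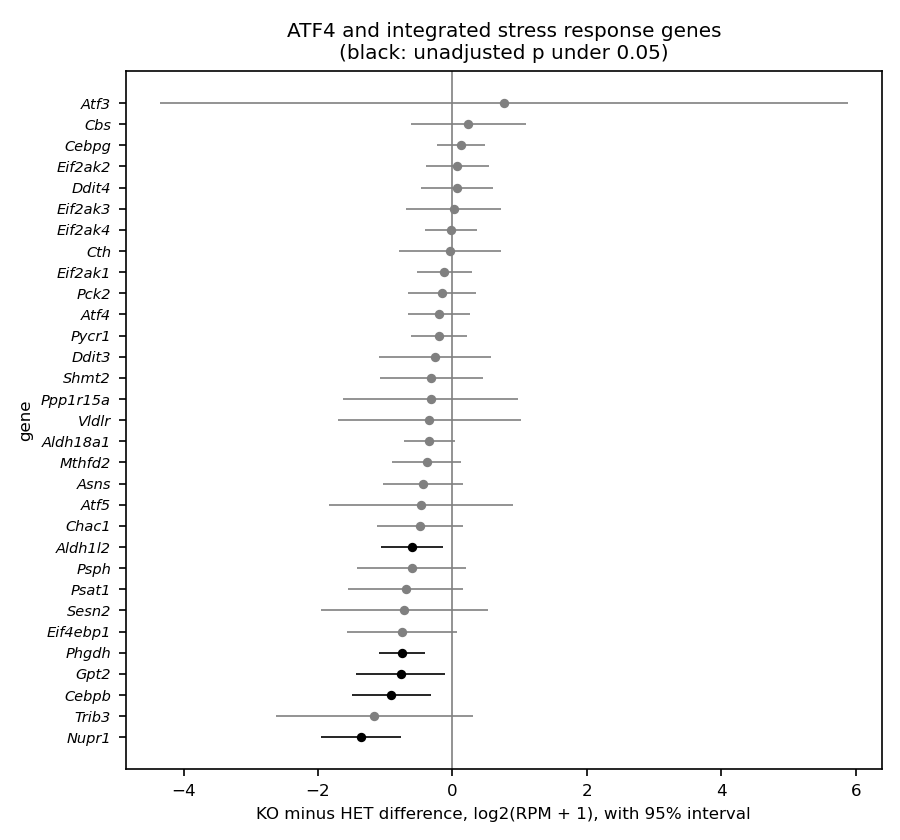
KO minus HET difference (horizontal axis, log2(RPM + 1), bars 95% intervals from limma) of 31 ATF4 and integrated stress response genes, ordered by difference, with black for an unadjusted p under 0.05. The 5 black points, from Nupr1 at -1.36 to Aldh1l2 at -0.60, all lie left of 0, and the interval of Atf3 (-4.35 to 5.88) is the widest.

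Genes of the antioxidant factor NRF2 were also set beside Slc7a11. Of 25 tested, without Slc7a11, 24 were lower on average in KO (median difference -0.29), against 48.6% of all genes. None had an unadjusted limma p under 0.05. For 22 of them all 3 higher codes lay above every lower code, against 31.3% of all genes. The higher codes are HET 2, HET 3 and KO 3, so a gene higher in them tends to a lower KO mean. The list was counted without the codes as a block. The summed level was 1345 to 1817 RPM in the lower and 3532 to 4053 RPM in the higher codes. Ftl1, the ferritin light chain and the most abundant of them, had 630.1, 410.4 and 1481 RPM in KO 1 to 3 and 400.7, 1620.2 and 1841 RPM in HET 1 to 3. Gm10252 (364.9 RPM) overlaps 26.5% of the exon bases of Ftl1 on the other strand, so reads of the pair are uncertain. Among the lower codes, KO 1 was thus the highest and HET 1 the lowest library for Ftl1 and for the summed level, whereas KO 1 was the lowest for Slc7a11. Cat, encoding catalase, had 5.34, 8.88 and 15.4 RPM in KO 1 to 3 and 8.37, 21.04 and 20.96 RPM in HET 1 to 3, with KO 1 lowest.

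Genes most like the transporters were looked up for the 4 whose level spanned more than 1 (log2), by the root mean square difference of levels centred on the 6 libraries. For Slc3a2 these were Sqstm1, the autophagy receptor p62 (0.07), Idua, a lysosomal enzyme (0.08), and Leprotl1 (0.08). Sqstm1 had 509, 436 and 699 RPM in KO 1 to 3 and 419.6, 988 and 1126 RPM in HET 1 to 3, a rank order close to that of Slc3a2. For Slc7a11 they were Msln (0.19), the selenophosphate synthetase gene Sephs2 (0.20) and Cat (0.21), so its pattern was matched less closely. Gm44729 (9.14 RPM) overlaps 36.4% of the exon bases of Sephs2 on the other strand. For Slc7a1 they were Dvl3 (0.03), a Wnt signalling gene, Arhgef10 (0.06) and AC159632.1 (0.07). Togaram1 (47.03 RPM) overlaps 77.0% of the exon bases of AC159632.1 on the other strand, so the reads of AC159632.1 (1.83 RPM) cannot be told from those of Togaram1. For Slc1a4 they were E130208F15Rik (0.03), Ghitm (0.07) and Snx10 (0.07), and E130208F15Rik lies wholly within exons of Sdhaf1 on the other strand. Among the transporters, Slc7a5 was nearest to Slc1a4 (0.11) and to Slc3a2 (0.19). With 14238 genes and 6 libraries, close matches are many and say nothing of shared control.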

How the data were processed

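The submitters' processing notes name HISAT2, DESeq2 and GRCm38 without roles or versions. Counter, annotation and strandedness: not given in the sources used. The authors deposited 1 log2 value per gene and library. Taken as reads, 100% of 93649 values below 1000 were whole to within 0.01 read. A gene with no read carries the value of 0.9 read. The deposited log2 values were treated as log2 RPM, but whole reads show only a common step per library and not its total. The authors' deposited table also holds a ratio (fold change) of HET over KO, which was not used here. Genes were matched to GENCODE M21 by position, or by symbol where positions differed slightly (99.6% matched), for identifiers and exon lengths.

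Limma 3.58.1 (R 4.3.3, trend and robust moderation) was run on log2(RPM + 1) of 14238 genes averaging 1 RPM or more, with Benjamini-Hochberg adjustment at 0.05. The fit was also run on simulated data, drawn gene by gene without the division by animal code. That run therefore says nothing of how the fit behaves with this division. Replicates were numbered in record order and pair no libraries. P-values set the difference between groups against the spread among libraries within groups, moderated over all genes tested. In the main fit that spread includes the division by animal code and the mixed sexes. A value of 3 reads was 0.0845 to 0.109 RPM. Intervals on reads cover counting error only.

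The 9 genes, the lists and the division by animal code were chosen with earlier results of these data known. Named genes were the 9, Abca12, the leading marker of each cell type, the 3 genes most like each wide-ranging transporter and, per pathway list, the 3 most abundant and the 2 of lowest p in each direction, of which the text gives part; Atf3, Cebpb, Gpt2, Aldh1l2, Slc7a8, Slc16a10, Slc38a3, Slc6a19, Xist and Ddx3y fall outside that rule and were named after their values were seen. Alternatives covered scaling, filters, pseudocounts, limma-voom, covariates and each library left out.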

Additional observations from a re-analysis of the deposited data

How the results depend on the processing

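No gene passed under any of the 15 alternatives run, and all 9 transporters stayed short of the threshold in each (lowest adjusted limma p 0.395). Of 134 transporter values under alternatives, 131 kept their direction and 6 had an unadjusted p under 0.05: Slc3a2, Slc7a5 and Slc1a4 without HET 1, Slc7a11 without KO 3 (p of 0.0109 in limma), and Slc3a2 and Slc1a4 with the acinar share as a covariate. The exceptions came from leaving out a library: Slc7a1 ranged from -0.38 to 0.12 and Slc7a2 from -0.077 to 0.24, with Slc7a1 turning without KO 3, and Slc7a2 without KO 3 (-0.072) or HET 1 (-0.077). Slc7a11 ranged from -1.22 to -0.31, Slc3a2 from -0.92 to -0.23, Slc7a5 from -0.70 to -0.20 and Slc1a4 from -0.71 to -0.20. Every remaining KO library has a lower code without KO 3, and every remaining HET library a higher code without HET 1. The count of genes with an unadjusted p under 0.05, 250 in the main test, was 564 with no filter on low values, where more genes were tested, 157 with a filter of 5 RPM, where fewer were, 767 with the side of the animal codes as a block and 1004 with the acinar share as a covariate. It ranged from 84 to 1702 when each library was left out, with 939 without KO 3, 84 without KO 1 or HET 3, 104 without HET 2, slightly more without KO 2, and the highest count without HET 1; the cause was not tested. With the acinar share as a covariate, Slc3a2 (-0.38) and Slc1a4 (-0.35) had intervals without 0 (-0.65 to -0.11 and -0.66 to -0.05), with unadjusted limma p of 0.0114 and 0.0273 and adjusted p of 0.590 and 0.676. Slc7a3 is left out by the filter of 5 RPM. No paired analysis was possible because the labels give animal codes and no replicate numbers shared between groups. Depth limits Slc7a3 and Slc7a11, with 39 to 67 and 47 to 332 reads per library.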

Other observations

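No carrier inside the cell passed the adjusted threshold. Of 10 tested mitochondrial amino acid carriers, 7 had lower and 3 higher means in KO, against 48.6% lower over all genes. For 7 of the 10, every higher code lay above every lower code, against 31.3% of all genes. The higher codes are HET 2, HET 3 and KO 3. An unadjusted limma p under 0.05 was found for 1 of the 10, against 1.76% of all genes in either direction and 1.29% with KO higher. That gene was Sfxn2, a sideroflexin of the inner mitochondrial membrane, with 43.2, 41.8 and 39.9 RPM in KO 1 to 3 and 30.1, 31.6 and 26.4 RPM in HET 1 to 3. Every KO library lay above every HET library (difference 0.49, 95% interval 0.14 to 0.84). Groups did not overlap, in either direction, for 5.74% of all genes. Sfxn2 had an unadjusted limma p of 0.0123 and an adjusted p of 0.9998. Its relative Sfxn1, a serine carrier, differed by -0.15 (-0.62 to 0.32). Of 9 tested lysosomal and vesicular carriers, Slc7a14 and Slc36a1 of the plasma membrane list among them, 6 had lower and 3 higher means in KO. None had an unadjusted limma p under 0.05. For 5 of the 9, every higher code lay above every lower code. Both lists were counted without the codes as a block. Slc38a9, the arginine sensor of the lysosome, differed by 0.27 (-0.19 to 0.73).

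Genes of amino acid sensing by mTORC1 had 26 lower and 9 higher means in KO among 35 tested, against 48.6% lower over all genes. Their median was -0.10, and none had an unadjusted limma p under 0.05. Sesn2, a leucine sensor that is also on the ATF4 list, had 39.1, 36.5 and 76.7 RPM in KO 1 to 3 and 34.7, 110.8 and 128 RPM in HET 1 to 3, so HET 1 again stood with the lower codes. Of the 35 genes, 22 were higher in all 3 higher codes than in any lower code, against 31.3% of all genes tested. Mtor, the kinase itself, had 36.6 to 40.9 RPM in the lower and 47.1 to 88.4 RPM in the higher codes. Slc6a19, a neutral amino acid carrier best known from kidney and gut, spanned 1.62 RPM in HET 1 to 20.1 RPM in HET 2.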
